A study of Drosophila melanogaster
Drosophila virilis with 26 samples.

Results

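SMART-seq2 copies polyadenylated RNA from an oligo-dT primer, adds a second primer site by template switching, amplifies the full-length cDNA by PCR and then cuts and tags it with the transposase of the Nextera XT kit (tagmentation), which is the most costly reagent of the protocol. The comparison described here is between SMART-seq2 libraries tagmented at full volume and SMART-seq2 libraries tagmented in a volume 2.5 times smaller, with proportionally less cDNA, and it covers the D. melanogaster genes only. It used 8 of the 26 deposited libraries, 4 per run, and 13793 of the 28126 genes in the table of sampled counts, chosen as those whose names do not carry the D. virilis prefix. The question was how far the levels of the same genes differ when the tagmentation reaction is made smaller.

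The SMART-seq2 libraries began with 1 ng and the TruSeq libraries with 100 ng of total RNA from pooled whole embryos of 0 to 4 h, raised under standard conditions, in which RNA of D. melanogaster was mixed with 0, 5, 10 or 20% of RNA of D. virilis. Each run holds 1 library per mixture, and the 4 mixtures served as technical repeats. The RNA came from pools, so the spread between libraries is that of library preparation and not that between embryos. No genotype is given in the sources used here. The full-volume and 2.5x-dilution runs were also pre-amplified separately, received different numbers of enrichment cycles and were prepared for separate experiments, so an effect of the dilution and an effect of the run cannot be told apart. The 5x-dilution run was tagmented from the same pre-amplified cDNA as the 2.5x-dilution run. It is used here beside that run and, as an alternative, in its place.

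Levels are given in CPM, here the reads of a gene per 1000000 D. melanogaster reads of its library. The totals of D. melanogaster reads ranged from 1747575 to 1919250 in the full-volume libraries and from 1523282 to 2089431 in the 2.5x libraries, since the authors sampled all libraries to 1 total of alignments that includes both species and reads outside genes. The D. virilis share of the reads on genes was 1.96, 3.94 and 8.17% in the 5, 10 and 20% libraries at full volume and 4.37, 8.32 and 17.6% in those of the 2.5x run. Libraries with the same label therefore held different proportions of D. virilis reads in the 2 runs. The part of this difference in the results below was not tested, other than by the scaling to D. melanogaster reads.

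The embryos were checked against marker genes. Maternal transcripts were abundant in every library, with levels of osk, the germ plasm organizer oskar, of 1689 to 2119.6 at full volume and 1562 to 2050.3 in the 2.5x run, and levels of bcd, the anterior determinant bicoid, of 196 to 261 and 158 to 269. Of 43 maternal axis and germ plasm genes with an entry in the table, 38 passed the filter on low counts. Zygotic patterning genes had low levels. The pair-rule gene eve had between 0 and 5.13 CPM over the 8 libraries and ftz between 0.576 and 4.89. The mesoderm gene sna had between 0 and 9.71. Only 1 of 11 pair-rule genes passed the filter, and 3 of 15 genes on the gap gene list, among them the corepressor Dsp1. Of 29 early zygotic and cellularization genes with an entry, 15 passed. Over the 8 libraries eve had 21 reads and osk 28238. The check thus bore out maternal RNA. The levels of the patterning genes did not bear out the later hours of the label, 0 to 4 h. The ages of the embryos were not tested. Cuticle protein genes summed to at most 2.2 CPM at full volume and at most 3.6 in the 2.5x run, and 118 of 125 had no read in any of the 8 libraries. Gut proteases summed to at most 2.1 and 3.5, and chemosensory genes to 16.2 to 22.1 and 10.8 to 20.4. The list of muscle, neuron and hemocyte markers, which holds the abundant genes Tm1 and crq, summed to 902 to 1046 at full volume and 966 to 986 in the 2.5x run.

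A level is defined relative to all D. melanogaster reads of its library, so that a difference between libraries is a difference in the share of reads and not in the amount of RNA. The comparison of the runs used the 6012 genes with a mean of at least 10 reads over the 8 libraries and edgeR's quasi-likelihood test, with Benjamini-Hochberg adjustment over all 6012 genes.

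No gene passed an adjusted p of 0.05 between full volume and the 2.5x dilution (0 of 6012, 0.0%). At an unadjusted p under 0.05 there were 175 genes, with 85 higher (1.41%) and 90 lower (1.5%) in the 2.5x run. About 5% of genes would reach this threshold by chance, more than the 2 shares together. DESeq2 also called 0 genes, with 194 at an unadjusted p under 0.05. The 4 and 4 levels did not overlap for 78 genes higher in the 2.5x run (1.3%) and 67 lower (1.11%). The median log2 difference over all genes tested was 0.00. The 27 genes with a fitted difference of at least 2-fold comprised 8 higher and 19 lower in the 2.5x run, and none of them passed the test.

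A missing call is not equality, so the 95% intervals of the differences were examined. The interval lay within 2-fold in either direction for 5381 genes (89.5%) and within 1.5-fold for 2959 genes (49.2%). Precision followed abundance. Among genes with a mean of at least 1000 reads, all 228 had an interval within 2-fold, with a median half-width of 0.31 on the log2 scale. The share was 98.1% of the 4199 genes with 100 to 1000 reads, and 65.2% of the 1585 genes with 10 to 100 reads, whose median half-width was 0.64. For most genes of middle and high abundance the libraries therefore bounded the difference between the runs to less than 2-fold, and for about 1 in 10 genes they did not.

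The most abundant genes show how the libraries behave. Ef1alpha48D, the elongation factor that brings aminoacyl-tRNA to the ribosome, had levels of 10619, 10284, 9774 and 8924 in the 0, 5, 10 and 20% libraries at full volume and of 12415, 7986, 10188 and 5574 in those of the 2.5x run. The 2.5x libraries lay on both sides of the full-volume libraries, and the log2 difference was -0.13 (95% interval -0.54 to 0.28, unadjusted p = 0.504 in edgeR's test). The maternal thioredoxin dhd, which acts on sperm chromatin at fertilization, had 9012, 5111, 5663 and 5632 at full volume and 5198, 5516, 7147 and 5839 in the 2.5x run. Its level in the full-volume 0% library stood well above the others. The chaperone gene Hsp83 had 4457, 6190.4, 5951 and 5945 at full volume and 5436, 6336, 5151 and 5801 in the 2.5x run. Here the full-volume 0% library was the lowest of all 8. The helicase me31B, a repressor of maternal mRNAs, had 5604, 4833, 5058 and 4922 at full volume and 4623, 5149, 4574 and 5224 in the 2.5x run, and its difference of -0.06 was bounded between -0.31 and 0.19. The glycolytic gene Gapdh2 had 5536, 3918, 4501 and 3887 at full volume and 3890.1, 5377, 4508 and 6407 in the 2.5x run. For all 5 genes the ranges of the runs overlapped.

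The full-volume 0% library stood apart from the rest. Over the 6012 genes, Pearson's r of the log2 levels was 0.892 to 0.901 between this library and the other 3 of its run, against 0.968 to 0.970 among those 3. Between 11.7 and 13.5% of the genes differed at least 2-fold between it and another full-volume library, against 2.0 to 2.45% among the other 3. Across the runs, the 12 pairs of libraries without it had an r of 0.940 to 0.970, so the other full-volume libraries were about as similar to the 2.5x libraries as these were among themselves (0.941 to 0.967). The correlations are across genes, which share library and depth and are not independent replicates. The mean of the TruSeq libraries, made with the poly(A) selection protocol used as the standard in this study, had an r of 0.802 with the full-volume 0% library, against 0.897 to 0.913 with the other full-volume libraries and 0.860 to 0.907 with the 2.5x libraries.

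**Figure D1:**
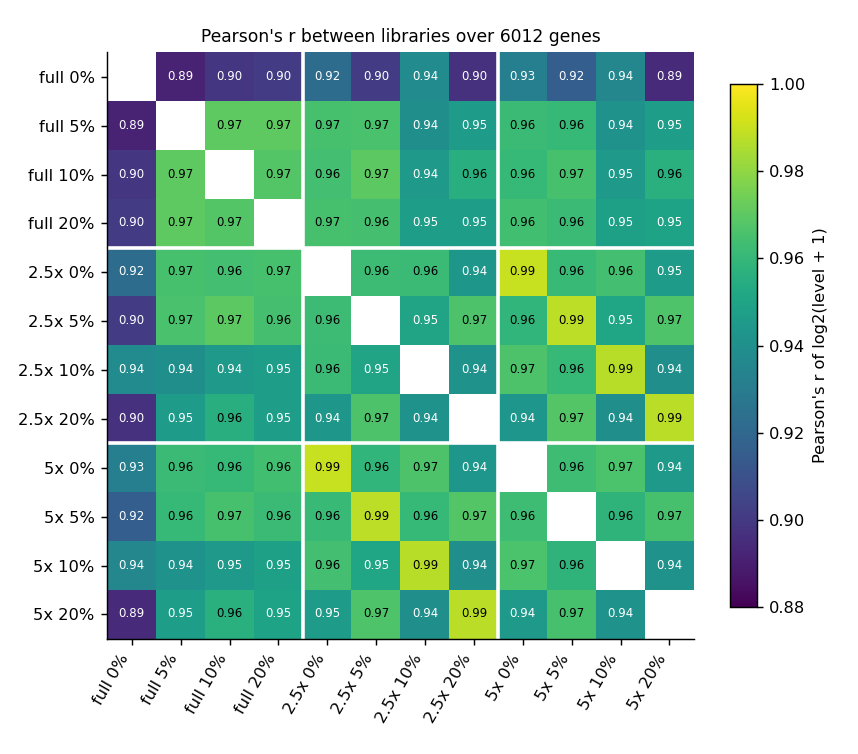
Pearson's r of log2(level + 1) over the 6012 genes tested, for each pair of the 12 SMART-seq2 libraries (full, full volume; 2.5x and 5x, the dilutions; percentages, D. virilis RNA); white lines separate the runs. The row of the full-volume 0% library is the darkest, at 0.94 or below, and each 2.5x library is most similar to the 5x library of its own mixture (0.987 to 0.990).

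Expressed as a coefficient of variation, the common dispersion of edgeR (variation beyond counting error) was 23.6% among the full-volume libraries and 18.7% among the 2.5x libraries on the sampled counts. It was 23.6% and 23.7% on the full-depth counts. At full depth the full-volume libraries held 1804452 to 1995639 D. melanogaster reads and the 2.5x libraries 12467391 to 16638175. The filter of a mean of 10 reads then let in genes of lower CPM in the 2.5x run. The full-depth values of the 2 runs therefore cover unlike sets of genes and do not compare their spread. On the sampled counts, the full-volume value fell to 12.4% without the 0% library, whereas leaving out any library of the 2.5x run gave 17.6 to 20.2%. The value of the full-volume run thus rested on 1 library. With the full-volume 0% library alone left out, 0 genes passed the adjusted threshold and 629 had an unadjusted p under 0.05.

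With the 0% libraries of both runs left out, an alternative set beside the comparison, 14 of 5992 genes passed (0.234%), of which 2 were higher (0.0334%) and 12 lower (0.2%) in the 2.5x run, and 767 genes had an unadjusted p under 0.05. Of the 14, 7 differed at least 2-fold, and 2 passed a test against a difference of 1.5-fold. DESeq2 called 56 genes on the same 6 libraries. The number of calls moved with every further library left out, from 3 genes without the 2.5x 5% library or the full-volume 20% library to 201 of 5990 (3.36%) without the 2.5x 10% library, of which 24 differed at least 2-fold. The 6-library and 5-library counts were chosen or run with the outlying libraries known. The 14 genes are described next because they passed the threshold in this fit, and they were chosen after their values were seen.

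**Figure D2:**
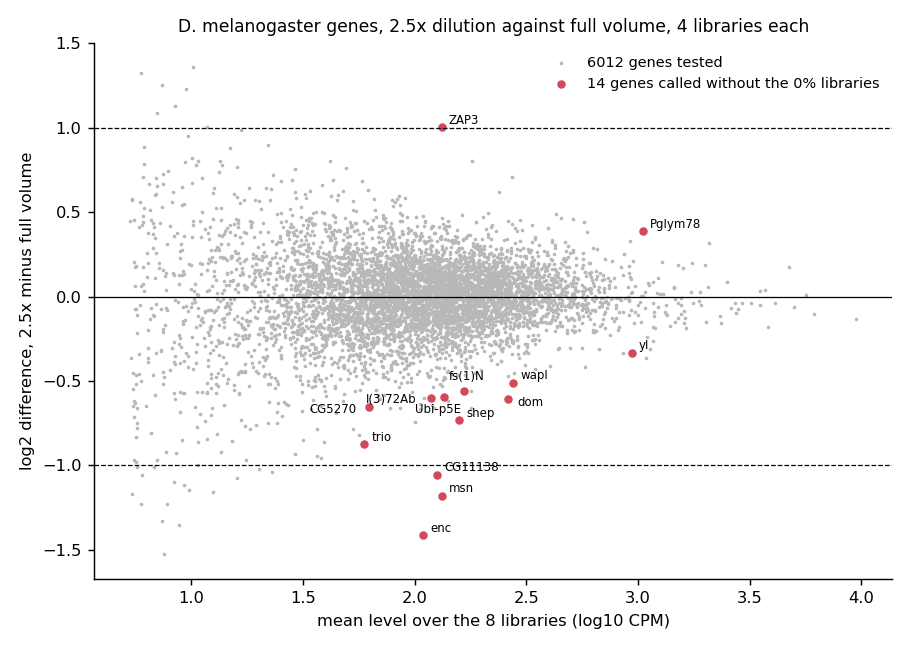
The log2 difference between the runs (2.5x minus full volume, all 8 libraries) against the mean level (log10 CPM) of each of the 6012 genes; dashed lines mark 2-fold. Red points are the 14 genes called without the 0% libraries; with all 8 libraries none is called, and enc, msn, CG11138 and ZAP3 lie at or beyond 2-fold.

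The largest difference among the 14 genes was that of enc (encore), a germline gene required in oogenesis. Its levels at 0, 5, 10 and 20% were 105, 162, 215 and 153 at full volume and 166, 19.0, 16.1 and 34.1 in the 2.5x run. Only the 0% library of the 2.5x run was within the full-volume range, and the other 3 lay far below it. The log2 difference was -1.41 ± 0.54 (SE, n = 4 libraries per run, unadjusted p = 0.0195 by edgeR's quasi-likelihood test, not passing after adjustment) with all libraries and -2.95 ± 0.25 (SE) without the 0% libraries (adjusted p = 5.11e-06). In the TruSeq libraries of the same mixtures, enc stayed between 558 and 579. The 5x libraries, from the same cDNA as the 2.5x libraries, repeated the pattern with 136, 21.2, 9.57 and 46.5.

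The kinase gene msn (misshapen), an upstream component of the Jun kinase pathway, behaved alike. It had 148, 187, 195 and 207 at full volume and 189, 44.1, 23.0 and 67.0 in the 2.5x run. Its 0% library was again at the full-volume level, and the log2 difference without the 0% libraries was -2.14 ± 0.26 (SE, edgeR adjusted p = 0.000375). In TruSeq, msn ranged from 321 to 368, and in the 5x libraries it had 168, 38.1, 19.1 and 71.0.

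CG11138 showed a like arrangement, with 179, 174, 174 and 153 at full volume and 152, 58.0, 30.5 and 84.7 in the 2.5x run. All 4 of its 2.5x libraries were below all full-volume libraries, with the 0% library only just so. The log2 difference was -1.06 ± 0.33 with all libraries and -1.54 ± 0.25 without the 0% libraries (edgeR adjusted p = 0.00947).

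The genes yl and fs(1)N were also among the 12 lower genes. For yl (yolkless), the receptor that takes up yolk protein into the oocyte, the levels were 561, 1267, 1130.4 and 1227 at full volume and 1089, 777, 759 and 696 in the 2.5x run. In this gene the full-volume 0% library was the lowest of all 8 and the 2.5x 0% library the highest of its run, so that the mean levels differed little with all libraries (-0.33 ± 0.22) and more without the 0% libraries (-0.70 ± 0.11, edgeR adjusted p = 0.00947). The eggshell gene fs(1)N had 85.8, 256, 197 and 250.1 at full volume and 174, 155, 99.7 and 106 in the 2.5x run, with the same arrangement of the 0% libraries.

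The genes dom and wapl were also among the lower genes. For dom (domino), an ATPase that exchanges histone variants, the levels were 309, 318, 276 and 362 at full volume and 289, 159, 199 and 183 in the 2.5x run, a log2 difference of -0.82 ± 0.15 without the 0% libraries (edgeR adjusted p = 0.0177). The cohesin release factor wapl had 198, 369.9, 359 and 367 at full volume and 246, 234, 206 and 221 in the 2.5x run. The 3 full-volume libraries with D. virilis RNA were nearly equal for wapl, and the 0% library lay well below them.

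The RNA-binding protein gene shep had 231, 162, 178 and 221 at full volume and 203, 90.3, 85.8 and 95.2 in the 2.5x run. The spliceosomal helicase gene l(3)72Ab had 66.8, 198, 155 and 152 against 123, 96.4, 76.0 and 80.7, and trio had 44.0, 89.6, 83.1 and 92.1 against 62.2, 26.7, 46.7 and 32.2. In each of these genes the 2.5x 0% library was the highest of its run. The polyubiquitin gene Ubi-p5E had 158, 175, 154 and 167 against 161, 97.5, 79.5 and 93.9, and CG5270 had 27.2, 71.9, 93.3 and 114 against 65.6, 42.1, 37.4 and 48.6. Reads shared between Ubi-p5E and other ubiquitin genes would not have been counted on it, so its level is uncertain.

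Among the higher genes, ZAP3 had 92.4, 98.0, 76.6 and 84.1 at full volume and 102, 198, 157 and 247 in the 2.5x run. Its 4 and 4 levels did not overlap, and it had the smallest p of all 6012 genes with all libraries (log2 difference 1.00 ± 0.23, unadjusted p = 0.000608 by edgeR, adjusted p = 1.00). Without the 0% libraries the difference was 1.22 ± 0.19 (edgeR adjusted p = 0.00842). The phosphoglycerate mutase gene Pglym78 had 1434, 603, 872 and 742 at full volume and 872, 1138, 1182 and 1587 in the 2.5x run, so that its full-volume 0% library lay within the 2.5x range and the other 3 near or below the lowest 2.5x level.

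The 0% library of the 2.5x run was the highest of its run for all 12 lower genes and the lowest for both higher genes, and the same held for the 0% library of the 5x run. This follows in part from the choice of genes, since a gene called only without the 0% libraries has 0% libraries that reduce the difference. For 5 of the 12 lower genes the 2.5x 0% library lay within the range of the other 3 full-volume libraries and for 7 below it.

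**Figure D3:**
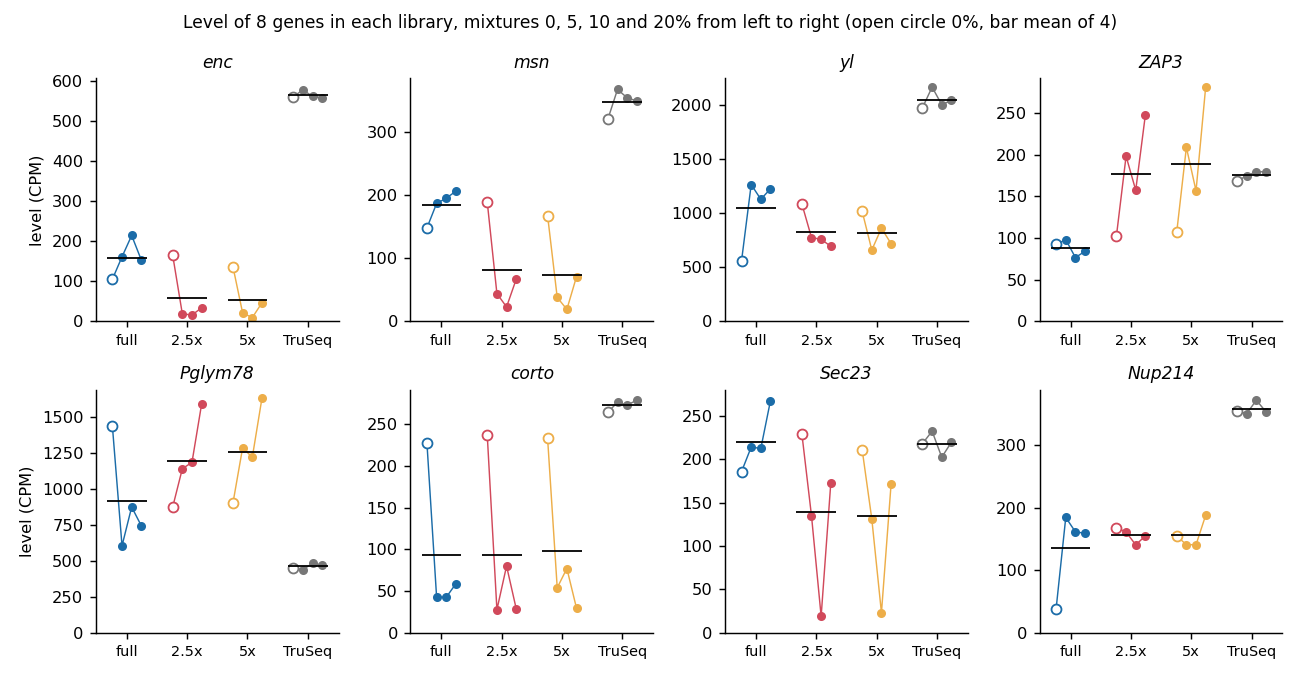
Level (CPM) of 8 genes in each library of the full-volume, 2.5x, 5x and TruSeq runs; points are the 0, 5, 10 and 20% libraries from left to right, the open circle is 0%, and the bar is the mean of the 4. For enc the 2.5x libraries other than 0% lie at 16.1 to 34.1 against 105 to 215 at full volume, Sec23 is low in the 10% library of both dilutions (19.0 and 23.1), and Nup214 is low in the full-volume 0% library (38.6).

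Departures of single libraries were counted among the 4427 genes with a mean of at least 100 reads, as a level at least 4-fold above or below the median of the other 3 libraries of the run. The 4-fold limit was chosen after seeing the data. The full-volume 0% library had 19 genes below and 1 above, and the other 3 full-volume libraries had none. In the 2.5x run, the 0% library had 3 genes above, the 10% library 5 below and the 20% library 2 below, and the 5% library had none. Together these were 30 departures in 28 genes, of which enc and msn are also among the 14.

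Nup214, a nucleoporin, had 38.6, 184, 161 and 159 at full volume and 168, 161, 141 and 155 in the 2.5x run. Apart from the full-volume 0% library, all libraries lay between 141 and 184. PDZ-GEF, an activator of the GTPase Rap1, had 62.5, 284, 264 and 232 against 162, 211, 173 and 201, and Apc, a component of the complex that degrades beta-catenin, had 12.5, 75, 55.6 and 88.1 against 77.1, 49.8, 52.4 and 23.0. For Sfmbt, a Polycomb group gene, both runs held a low library, with 19.6, 141, 81.5 and 169 at full volume and 56.5, 108, 133 and 19.7 in the 2.5x run, but the low library was that of 0% in the former and that of 20% in the latter.

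The gene corto, which encodes a partner of Polycomb and trithorax proteins, was high in the 0% library of both runs. It had 227, 42.7, 42.6 and 58.9 at full volume and 237, 27.7, 80.1 and 28.9 in the 2.5x run. Its mean levels in the 2 runs were nearly equal, at 92.8 and 93.4, while its levels within each run spanned more than 5-fold. In TruSeq it had 265, 276, 273 and 279, with no difference between the mixtures of that size.

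Sec23, a subunit of the COPII coat, had 186, 214, 213 and 268 at full volume and 229.7, 135, 19.0 and 173 in the 2.5x run. The 10% library was thus the low one. Lam, the B-type lamin of the nuclear envelope, had 328, 209, 63.4 and 329 in the 2.5x run, and Axn, the scaffold of the beta-catenin destruction complex, had 156, 98.5, 28.2 and 179.9. For both genes all 4 full-volume levels exceeded the level of the 2.5x 10% library, with 259 to 389.7 for Lam and 118 to 180.3 for Axn. The other genes low in this library were CG6227, with 15.6, and bon, a transcriptional cofactor gene, with 45.5. The gene kdn, which encodes citrate synthase, was low in the 20% library, with 156, 39.0, 85.3 and 20.4.

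The 5x libraries, tagmented separately from the pre-amplified cDNA of the 2.5x run, were examined for the same departures. All 3 genes that were high in the 2.5x 0% library were at least 4-fold high in the 5x 0% library. Of the 5 genes low in the 2.5x 10% library, 3 were at least 4-fold and all 5 at least 2-fold low in the 5x 10% library, where Sec23 had 23.1 against 131 to 211 in the other 5x libraries. Of the 2 genes low at 20%, 1 was at least 4-fold and both at least 2-fold low in the 5x 20% library. The departures in the 2.5x run were therefore present in the 5x libraries as well. No second tagmentation of the full-volume cDNA was analysed here.

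Between the 2.5x and 5x dilutions, edgeR called 0 of 5995 genes (0.0%), with 2 at an unadjusted p under 0.05 (0.0334%). DESeq2 was not run on this comparison. Libraries of the same mixture in the 2 dilutions had an r of 0.987 to 0.990, and between 0.299 and 0.566% of the genes differed at least 2-fold between them. These r values are larger than any between full volume and 2.5x. The common dispersion corresponded to 18.3% without the mixture and to 4.78% with the mixture as a block in the fit, in which 0 genes passed after adjustment and 228 had an unadjusted p under 0.05. The spread among mixtures within a dilution was thus several times that between dilutions of the same cDNA. The comparison with full volume has no such pairing by cDNA, since the runs were pre-amplified separately.

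Across genes with at least 100 reads, the ratio of the highest to the lowest of the 4 libraries of a run had a median of 1.51 at full volume, 1.40 in the 2.5x run, 1.39 in the 5x run and 1.14 in TruSeq. The highest ratio of any of the 4427 genes was 8.66 at full volume (Sfmbt), 12.1 in the 2.5x run (Sec23), 14.2 in the 5x run (enc) and 2.18 in TruSeq. For the 28 genes with a departing library, TruSeq libraries of the same mixtures spanned at most 1.24-fold. These genes were chosen for a departure in a full-volume or 2.5x library. TruSeq took no part in that choice, so its smaller span for them follows in part from the choice. The TruSeq libraries began with more RNA. The part of the input in their lower median ratio over the 4427 genes was not tested.

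The median deviation of the full-volume 0% library differed between groups of genes by span, which is given as a description. Genes were placed in 5 equal groups by the span of the gene, introns included, from the RefSeq annotation (5932 of the 6012 tested genes had a span). Deviations were taken from each gene's median over the 8 libraries on the log2(level + 1) scale. In the full-volume 0% library, the median deviation was 0.48 in the group of shortest genes (370 to 1466 bp), 0.19 and -0.05 in the next groups, -0.32 in the fourth and -0.25 in the longest (7384 bp and more). In the other full-volume libraries it rose from -0.14, -0.11 and -0.03 in the shortest group to 0.09, 0.06 and 0.06 in the longest. The 2.5x 10% library had 0.30 in the shortest group and -0.10 in the longest, and the 5x 10% library had 0.28 and -0.12. The deviations of the full-volume 0% and 2.5x 10% libraries from the means of their runs had an r of 0.44 over genes, although their labels differ. This was the highest value of all pairs between the 2 runs. The lowest was -0.35, between the full-volume 0% and the 2.5x 5% library. Deviations of the libraries of a run depend on each other, since they share its mean.

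**Figure D4:**
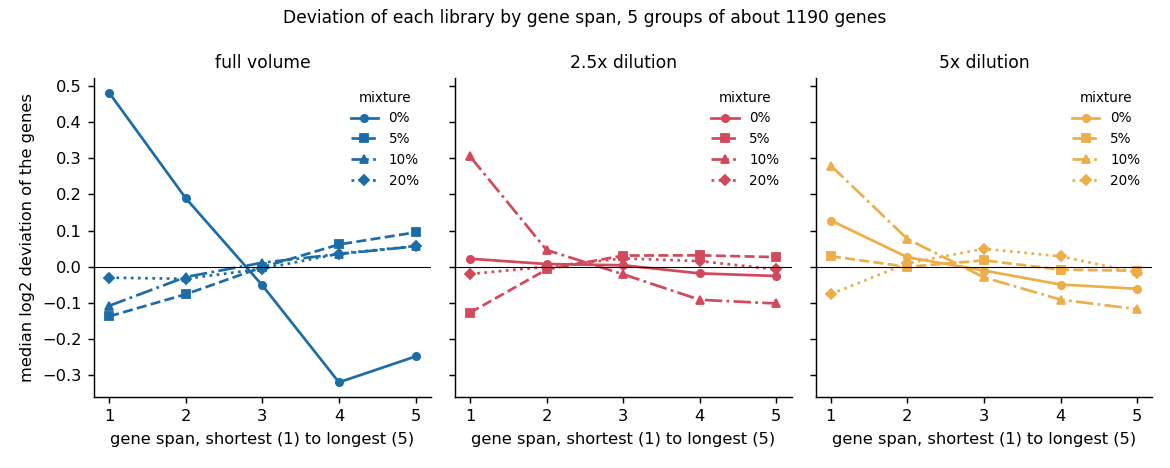
Median log2 deviation of the genes in each library from the median of the 8 libraries compared, for 5 groups of genes from the shortest span (1) to the longest (5); lines are libraries, by mixture. The full-volume 0% library falls from 0.48 to -0.25, the 10% libraries of both dilutions fall from about 0.3 to -0.1, and the other libraries stay within 0.14 of 0.

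Over the runs as a whole the gene span made little difference. The median log2 difference between 2.5x and full volume was 0.00, 0.01, 0.03, 0.01 and -0.05 from the shortest to the longest group. Without the 0% libraries it was 0.18, 0.09, 0.02, -0.07 and -0.13, so that the shortest genes were then higher and the longest lower in the 2.5x run. The median over all genes was 0.03 in that fit. The span of a gene is not the length of its transcript, and no test was made over genes. By chromosome, the medians of the 6 chromosomes and arms lay between -0.04 and 0.01.

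Groups of genes with a known role were compared next, from lists chosen with earlier results of these data known. Among the 17 lists with at least 3 tested members, none had a called member with all 8 libraries, against 0.0% of all genes tested. Members at an unadjusted p under 0.05 were 1 higher and 3 lower. The higher one was ush, which is on lists with 15 and 9 tested members. The lower ones were 1 of 15 dosage compensation and sex genes and 2 of 26 long housekeeping transcripts. The other lists had none. The shares over all genes tested were 1.41% higher and 1.5% lower.

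The maternal axis and germ plasm genes, which pattern the egg, had a median log2 difference of -0.04 over 38 tested members, 12 of them above 0. Their summed level was 20395 to 22535 at full volume and 20655 to 21443 in the 2.5x run. The members ranged from pum (-0.32), a translational repressor, to snk (0.39), a serine protease of the dorsoventral pathway. The syncytial cell cycle and DNA replication genes, which drive the rapid nuclear divisions of the early embryo, had a median of -0.01 over 36 members, 17 of them above 0. They ranged from mad2 (-0.33), a spindle checkpoint gene, to mei-41 (0.17), the ATR kinase of the replication checkpoint. The most abundant of them, CycB, encoding the mitotic cyclin B, had 2679, 3284, 2797 and 3095 at full volume and 4137, 2474, 3069.8 and 1848 in the 2.5x run. The 2.5x levels thus spanned more than 2-fold on both sides of the full-volume levels.

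Among the 15 tested early zygotic and cellularization genes, the median was -0.07 and 6 were above 0. The members spread from CG14427 (-1.06) to ush (1.23), both at low levels. The gene ush encodes the GATA cofactor u-shaped and is also on the list of dorsal BMP pathway genes. For ush the levels were 1.63, 7.82, 7.55 and 5.72 at full volume and 15.3, 21.0, 12.1 and 4.6 in the 2.5x run, which overlap (unadjusted p = 0.0290, edgeR). The most abundant member, lok, which encodes the checkpoint kinase Chk2, had a difference of -0.13. It had 801 to 885 CPM of the 1621 to 1721 summed over the list at full volume. In the 2.5x run it had 739 to 784 of 1547 to 1597. The 9 tested members of the dorsal BMP pathway list had a median of 0.10 and reached from scw (-0.69), a BMP ligand, to ush, and put, a BMP receptor gene, was the most abundant (0.23). Of the 3 tested members of the gap gene list, hb was at 0.12, Dsp1 at -0.26 and cnc at -0.30. Dsp1 encodes a corepressor and is not itself a gap gene. The 12 segment polarity genes had a median of -0.12, between fz2 (-0.65), a Wingless receptor with few reads, and fu (0.22), a kinase of the Hedgehog pathway, and arm, the beta-catenin, was at 0.00.

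Housekeeping groups lay close to 0. The 23 translation factors had a median of 0.00, between eIF5 (-0.38) and pAbp (0.32), the poly(A)-binding protein. The 32 tested genes of the proteasome list had a median of 0.02, between Prosap (-0.19), a scaffold protein of synapses that matched the list by its name, and Rpn2 (0.29), a subunit of the regulatory particle. The 12 heat shock genes had a median of 0.03, between Hsc70Cb (-0.08) and Hsc70-5 (0.24). The 17 V-ATPase subunits had a median of 0.00, between Vha36-1 (-0.17) and VhaAC39-1 (0.19), with Vha16-1, the most abundant, at 0.05. The 6 tubulins had a median of 0.01, between alphaTub84B (-0.10) and gammaTub23C (0.19), and betaTub56D was at 0.04. The 13 subunits of ATP synthase and cytochrome oxidase had a median of -0.01, between CoVb (-0.14) and blw (0.19), and ATPsyn-beta was at -0.11. The 26 long housekeeping transcripts had a median of -0.05, between nonC (-0.86), a kinase of mRNA surveillance, and faf (0.44), a deubiquitinase, and kis, a chromatin remodeller, was at 0.16.

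**Figure D5:**
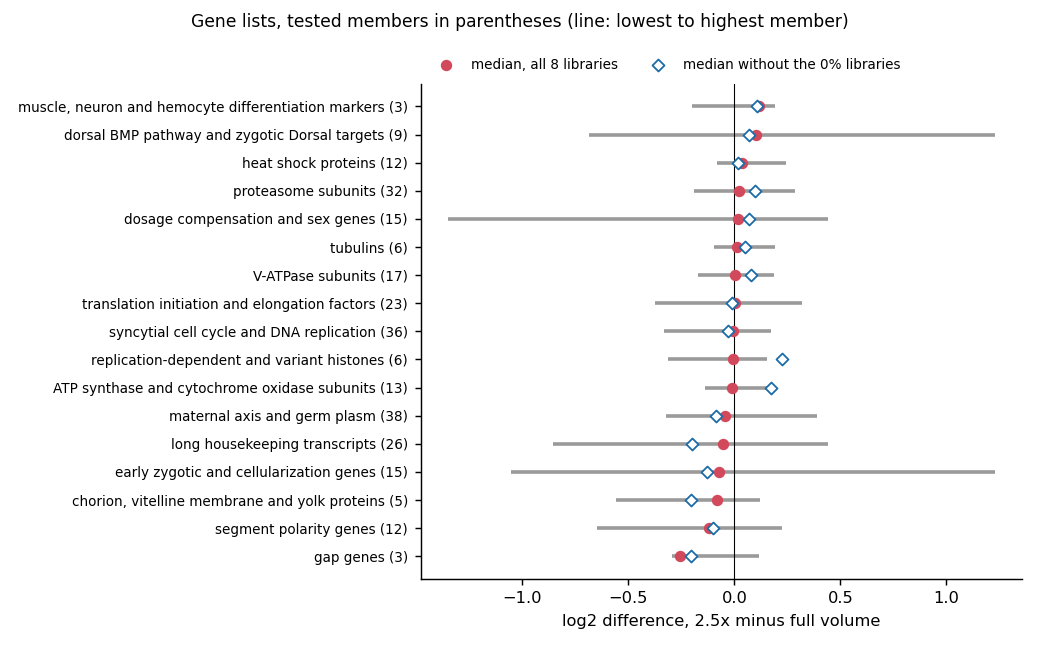
Median log2 difference between the runs (2.5x minus full volume) for the 17 gene lists with at least 3 tested members, with all 8 libraries (red) and without the 0% libraries (blue); grey lines reach from the lowest to the highest member with all 8 libraries. With all libraries the medians lie between -0.26 and 0.11; without the 0% libraries the histones and the ATP synthase and cytochrome oxidase subunits are at 0.22 and 0.17 and the long housekeeping transcripts at -0.20.

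Without the 0% libraries, when the median over all genes was 0.03, the medians of several lists moved away from 0. The 6 histone genes had a median of 0.22, the ATP synthase and cytochrome oxidase subunits 0.17 and the proteasome list 0.10, whereas the long housekeeping transcripts had -0.20 and the chorion, vitelline membrane and yolk list -0.20. Among the members of these lists, only fs(1)N, of 5 tested on the vitelline membrane list, and 1 of the 26 tested long housekeeping transcripts were called. The share over all genes in that fit was 0.234% (14 of 5992), and these calls moved with each further library left out. The histone genes that passed the filter include His2Av (-0.27 with all libraries), His3.3B (-0.31) and His4r (0.15), and 109 of the 117 histone entries had no read in any of the 8 libraries. Replication-dependent histone transcripts lack poly(A) tails in most cells and are present in many copies in the genome, whose reads do not have a unique place. Symbols with the chorion prefix include Cp1 (-0.21), a cysteine protease gene, and Cp190 (0.12), which encodes an insulator protein, and neither is an eggshell gene.

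The levels of dosage compensation and sex genes had a median of 0.02 over 15 members. The noncoding RNA gene roX1, which is part of the dosage compensation complex of males, was the lowest member at -1.35 ± 0.44 (unadjusted p = 0.00768, edgeR, not passing after adjustment). Its levels were 13.0, 13.5, 7.01 and 17.2 at full volume and 3.83, 7.69, 2.88 and 5.25 in the 2.5x run, which overlap in 1 pair of libraries. The highest member, dpn (0.44), had fewer reads still, and da, the most abundant, was at 0.32. The 3 tested muscle, neuron and hemocyte markers were Tm1 (-0.20), crq (0.19) and 1 other, and the summed level of this list was 902 to 1046 at full volume and 966 to 986 in the 2.5x run. Cytoplasmic and mitochondrial ribosomal protein genes named by the usual prefixes and mitochondrially encoded genes were not analysed here. The ribosomal protein gene sta had 2079.8, 973, 883 and 873 at full volume and 1857, 780.3, 1717 and 521 in the 2.5x run, with the 0% library high in both and the 10% library also high in the latter.

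Among the other genes with separated levels and a small p were Nc, which encodes the initiator caspase Dronc, with 189, 227, 192 and 243 at full volume and 146, 151, 142 and 139 in the 2.5x run (log2 difference -0.56 ± 0.15, unadjusted p = 0.00208, edgeR), and Top1, the topoisomerase I gene, with 516, 509, 463 and 446 against 566, 661, 645 and 759 (0.44 ± 0.13, unadjusted p = 0.00438, edgeR). Neither passed after adjustment, and both were chosen after their values were seen. In TruSeq, Nc had 143 to 154, and Top1 had 1045 to 1097, above its levels in both runs. At low levels, CG5337 had 5.43, 6.25, 7.01 and 4.01 at full volume and 15.8, 10.8, 17.3 and 15.1 in the 2.5x run, and insc had 14.7, 15.6, 7.55 and 6.87 against 4.31, 3.08, 3.46 and 4.6. The groups of these genes do not overlap, as for 1.3 and 1.11% of all genes in the 2 directions.

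Few genes were found in 1 run only. With at least 10 reads summed over the 4 libraries of a run, 10 genes had no read in any full-volume library and 8 had none in any 2.5x library, and with at least 30 reads there were none in either direction. The genes absent at full volume with the most reads in the other run were CG12374, Con and gce, and those absent in the 2.5x run were ckn, ord and Syn1. Most of the CG12374 reads came from the 2.5x 20% library, at 10.5 CPM. Among genes of at least modest abundance, no gene was lost or gained in the 2.5x run at this depth.

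No library metric passed the test after adjustment. The 100 most abundant genes took 17.9% ± 1.18 (SD, n = 4) of the D. melanogaster reads at full volume and 17.5% ± 0.898 in the 2.5x run (two-sided exact permutation p = 0.714, adjusted p = 0.804). Genes with the usual ribosomal protein prefixes and mitochondrially encoded genes were not analysed here, and neither the 100 genes nor the CPM total includes them. At an equal depth of 1523282 D. melanogaster reads, 6708 ± 50.7 (SD, n = 4) genes had at least 1 read at full volume and 6758 ± 30.8 in the 2.5x run (exact permutation p = 0.143, adjusted p = 0.600). Genes with at least 10 reads numbered 5965 ± 21.4 and 5945 ± 18.0 (SD, n = 4, exact permutation p = 0.200, adjusted p = 0.600). Alignments not assigned to a gene made up 25.5% ± 1.95 and 23.1% ± 4.51 (SD, n = 4, exact permutation p = 0.429, adjusted p = 0.771). From the 0% to the 20% library they were 28.1, 23.5, 24.6 and 25.6% at full volume and 18.3, 20.3, 26.0 and 27.8% in the 2.5x run. The 2.5x values thus rose in the order of the mixtures. Shares of alignments cover both species, and the part of the D. virilis reads in them was not tested. The smallest p of the 9 metrics was that of alignments without a unique place, with 17.1, 15.0, 15.7 and 15.7% at full volume and 9.06, 11.8, 14.1 and 15.7% in the 2.5x run (exact permutation p = 0.0571, adjusted p = 0.514, a difference of -3.21 percentage points). With the 5x run in place of the 2.5x run this share did not overlap between the runs, at 15.0 to 17.1% and 9.97 to 13.6% (exact permutation p = 0.0286, the smallest that 4 libraries against 4 allow, adjusted p = 0.257). The sequencing runs of the full-volume and dilution libraries cannot be told apart from the dilution in any of these values.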

How the data were processed

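RNA of D. melanogaster and D. virilis embryos was mixed, and libraries were sequenced as single-end reads of 50 bp. The submitters' processing notes name CASAVA 1.8, STAR and HTSeq. The authors aligned reads to the FlyBase references of the 2 species joined together, and htseq-count assigned them to gene names without using strand. The deposited values are raw counts, in 1 table at full depth and in another after the authors drew the same number of alignments from every library. Their columns carry the word FPKM. Overlapping genes on either strand share reads that were not assigned, and reads of near-identical copies were left out, so levels of gene families are uncertain. No deposited column of the tables lacks a sample (0 columns).

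The sampled counts of the D. melanogaster genes of the 8 libraries were tested with edgeR 4.0.16 (glmQLFit and glmQLFTest) in R 4.3.3. The library size was the D. melanogaster total, and genes with a mean under 10 reads were left out. Standard errors were taken from the coefficient and its F value, and 95% intervals from the t distribution. glmTreat tested against 1.5-fold. DESeq2 1.42.0 was the other tool. Library metrics were compared by exact permutation tests in scipy 1.17.1, adjusted over 9 metrics, with counts thinned to the smallest total (seed 869). Levels were CPM of the D. melanogaster reads, with a pseudocount of 1 on the log2 scale. The fit was tested on simulated counts before use. Gene spans came from RefSeq, in which 13643 of the 13793 gene names matched a symbol or a synonym. No gene sequences or GC content were used here, and the alternative by GC content was not run.

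Named genes were to be those past the threshold with a mean of at least 100 reads and no overlap (the 10 largest in each direction, of which there were none), the 5 most abundant, the most abundant and both extreme members of each list with at least 3 tested members, and up to 3 genes per direction with no read in a run. Other genes were chosen after their values were seen. The members compared and the gene lists were chosen with earlier results of these data known. Shares of reads on mitochondrial and ribosomal protein genes were planned and are not analysed here. Nothing says that the libraries came from separate RNA extractions, so p-values measure the spread between libraries, which is technical.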

Additional observations from a re-analysis of the deposited data

Results flagged for a closer look

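In groups of 4 libraries, the library at either end of the range was compared with the others by Dixon's ratio, for the library metrics and for the genes given library by library in the text. Of 94 groups, 10 held an outlying library (10.6%, where chance gives about 5%), and 8 of the 10 were the full-volume 0% library. Many of these genes were chosen because a library departed, so the share is a description.

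In the full-volume run, the 0% library was outlying for dhd (9012 CPM, the highest), corto (227, the highest), sta (2079.8, the highest), Hsp83 (4457, the lowest) and wapl (198, the lowest). In the same library the 100 most abundant genes took 19.6% of the D. melanogaster reads and the 1000 most abundant 54.5%, and 5997 genes had at least 10 reads at equal depth, each the highest of its run. In the 2.5x run, the 0% library was outlying for enc (166 CPM) and shep (203), both the highest. No effect was compared between further groups, and no other data were examined for a signal.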

How the results depend on the processing

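With all 8 libraries, TMM scaling, DESeq2, no filter on low counts, a minimum of 50 reads, the full-depth counts, the 1% library added to the 2.5x run and the 5x run in place of the 2.5x run each called 0 genes. Leaving out 1 library at a time gave 0 to 2 genes, of which 0 to 2 differed at least 2-fold and 0 to 1 passed the test against 1.5-fold, and the 2 calls, both lower, came without the 2.5x 0% library. Libraries of the same mixture in these runs deviated from their run means with r of 0.00, 0.24, -0.32 and 0.03. Whether the runs used the same RNA mixes is not stated in the sources used here, and these values cannot settle it. The fit with the mixture as replicate block called 0 genes, with 158 at an unadjusted p under 0.05 against 175.

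Without the 0% libraries of both runs, 14 genes were called, 7 at least 2-fold and 2 against 1.5-fold. Alternatives chosen after seeing the data gave, in the same order, 14, 7 and 2 with TMM scaling, 19, 11 and 2 at full depth, and 33, 14 and 2 with the 5x run in place of the 2.5x run, and DESeq2 gave 56, of which 17 differed at least 2-fold. Leaving out each further library gave 3 to 201, 3 to 24 and 1 to 5 genes, with 4, 13, 3, 3, 201 and 16 calls without the full-volume 5, 10 and 20% and the 2.5x 5, 10 and 20% library. Without the full-volume 0% and the 2.5x 10% library, 0 genes were called and 508 had an unadjusted p under 0.05.

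The spread within the full-volume run was 12.4 to 26.7% with 1 library left out. The difference between the shortest and the longest genes was 0.05 on the log2 scale, 0.05 with TMM and 0.31 without the 0% libraries. Of 79 named genes under all alternatives (2181 values), 30 were called in at least 1 alternative, and the uncalled difference changed sign in 205. The gene sta was the only named gene called with the opposite sign, at -0.48 without the 0% libraries and the 2.5x 10% library, and its difference reached 0.46 without the 2.5x 20% library in place of the 10% library. The 2.5x and 5x dilutions gave 0 calls in every alternative run. With 4 libraries per run, differences of genes under 100 reads are poorly bounded.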
